A study of Mus musculus with 4 samples.

Results

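The genes described here are 10 genes of the Notch pathway, chosen by gene symbol: the receptors *Notch1*, *Notch2*, *Notch3* and *Notch4*, the ligands *Jag1*, *Jag2*, *Dll1* and *Dll3*, and the target genes *Hes1* and *Hey1*. All 10 were present, each as a single row among the 19645 features of the deposited tables, of which 17710 carry a gene symbol. The RNA came from undifferentiated mouse embryonic stem cells (ESCs), was sequenced after removal of ribosomal RNA, and gave 2 WT and 2 *Bmal1* KO libraries. BMAL1, encoded by *Arntl*, is a transcription factor of the circadian clock. In the KO cells *Arntl* was disrupted by CRISPR-Cas9, and the WT cells carry no edit. Both were grown on gelatin in medium with serum and the cytokine LIF, and the KO line is 1 selected clone with a frameshift deletion. No label ties the 2 libraries of a genotype to separate clones, so the p-values below measure the spread between these libraries, and the genotype cannot be told apart from the cell line. The values are FPKM, the sequenced fragments of a gene scaled to the length of its transcript and to the size of the library. Read numbers cannot be taken from them, so the depth is unknown and errors rest on the spread between libraries.

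Notch receptors are membrane proteins that are activated by Jagged and Delta-like ligands on neighbouring cells. Binding leads to cleavage of the receptor, first by an ADAM protease and then by the gamma-secretase complex, and the released intracellular part joins the DNA-binding protein RBPJ in the nucleus and switches on genes of the HES and HEY families. HES and HEY proteins are repressors that hold back the basic helix-loop-helix (bHLH) factors of neural differentiation. In ESCs the pathway is known mainly for its role in the choice of neural fate after the cells leave the pluripotent state.

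The deletion leaves most of the *Arntl* transcript in place, so its RNA level is no check of the genotype. *Arntl* had 6.05 and 6.29 FPKM in WT and 5.95 and 5.92 in KO, a log2 fold change of -0.06 that turned to 0.02 when the libraries were scaled to the same sum over features with a symbol. The 8 markers of ESC identity were present in all libraries, with *Pou5f1* at 1389 to 1620 FPKM and *Nanog* at 201 and 207 in WT and 179 in both KO libraries. Of these 8, *Klf4* (log2 fold change -0.46, limma adjusted p = 0.0177, 0.0582 without a trend in the variance) and *Tdgf1* (-0.36, limma adjusted p = 0.0322, past in 6 of 10 alternatives, and -0.41 to -0.32 with a library left out) fell in KO, where 5.60% of all tested features did. At an unadjusted limma p under 0.05, 5 were lower, as were 2013 of all 12990 tested features. *Esrrb* had 175 and 147 FPKM in WT and 202 and 180 in KO (log2 fold change 0.25, limma adjusted p = 0.2005), and *Dppa5a* had a log2 fold change of -0.00024. The 8 fibroblast markers that were present summed to 2.05 to 2.37 FPKM in WT and 2.80 to 3.46 in KO, with *Col1a1* at 0.217 at most. Most of this sum was *Thy1*, with 1.69 and 1.54 FPKM in WT and 2.73 and 2.11 in KO (limma adjusted p = 0.120). The 7 endoderm markers summed to 1.14 and 1.23 FPKM in WT and 1.89 and 1.74 in KO. Among them *Sox7* had 0.260 and 0.247 FPKM in WT and 0.709 and 0.627 in KO, *Dab2* had 0.0993 and 0.136 in WT and 0.327 and 0.343 in KO, and *Sox17* had 0.0798 at most. *Gata4*, the only 1 of them tested, had 0.600 and 0.561 FPKM in WT and 0.529 and 0.445 in KO (log2 fold change -0.22, limma adjusted p = 0.653). *Gata6* had 0.102 and 0.168 FPKM in WT and 0.166 and 0.0904 in KO, which overlapped. The lines also differed at genes of chromosome Y: *Ddx3y* had 0.235 and 0.403 FPKM in WT and 16.4 and 20.6 in KO. Of the total FPKM, 26.8% (WT replicate 1), 37.3% (WT replicate 2), 19.0% (KO replicate 1) and 18.1% (KO replicate 2) fell on features that carry no symbol.

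*Hes1* was by far the most abundant of the 10 transcripts, with a mean of 22.2 FPKM in WT and 36.6 in KO. In WT it was followed by *Notch1*, *Notch3*, *Jag2* and *Notch4*, whose means lay between 3.98 and 4.27 FPKM and whose libraries overlapped from each gene to the next. *Notch2* (2.91), *Jag1* (1.63), *Dll3* (1.06), *Hey1* (0.416) and *Dll1* (0.172) came below, each apart from the gene above it in both libraries. In KO the order of the middle genes was different: *Jag2* (6.06) and *Notch1* (5.34) overlapped at the top, *Notch3* (2.91) and *Notch2* (2.73) overlapped below them, and *Notch4* came next with a mean of 2.01 FPKM. The 4 lowest genes kept their order. FPKM are scaled to length, so these levels can be set side by side between genes.

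**Figure D1:**
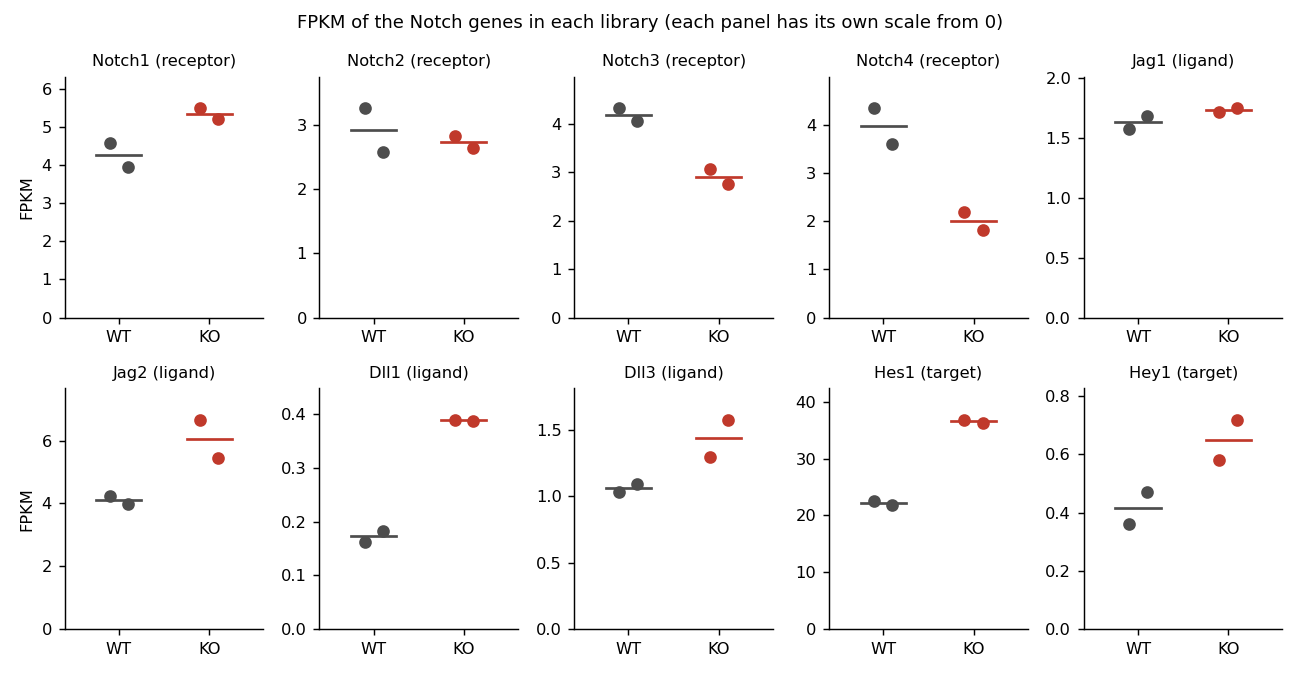
FPKM of each of the 10 genes (y axis, own scale from 0 in each panel) in the 2 WT and the 2 KO libraries; each point is a library and each line the mean of the genotype. Notch4 is at 4.34 and 3.61 in WT and at 2.2 and 1.81 in KO, Hes1 is at 22.5 and 21.8 in WT and at 36.9 and 36.3 in KO, and Notch2 is the only panel in which the genotypes overlap.

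The genotypes were compared on log2(FPKM + 0.1) in limma, across the 12990 features whose mean reached 0.5 FPKM, and p-values were adjusted by Benjamini-Hochberg over all of them. Of the 10 genes 9 passed this minimum, *Dll1* did not, and *Hey1* passed it only through its KO libraries. *Notch4* fell and *Hes1* rose at an adjusted p under 0.05, so that 2 of 9 passed where 12.5% of all tested features did (6.85% higher and 5.60% lower in KO). With a change greater than 2-fold also required, 0 of the 9 passed in limma, against 4.14% of all features (2.72% higher and 1.42% lower), and 5 of the 9 had an unadjusted limma p under 0.05 (29.6% of all features). Both KO libraries lay beyond both WT libraries in 8 of the 9 (58.8% of all features), in 6 above (27.0%) and in 2 below (31.7%), and the log2 fold change was above 0 in 6 of the 9, against 46.8% of all features. The medians of the log2 fold change were 0.32 for the 9 genes and -0.02 for all features. Because the libraries are bulk RNA, fewer cells that express a gene cannot be told apart from less RNA of it per cell.

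**Figure D2:**
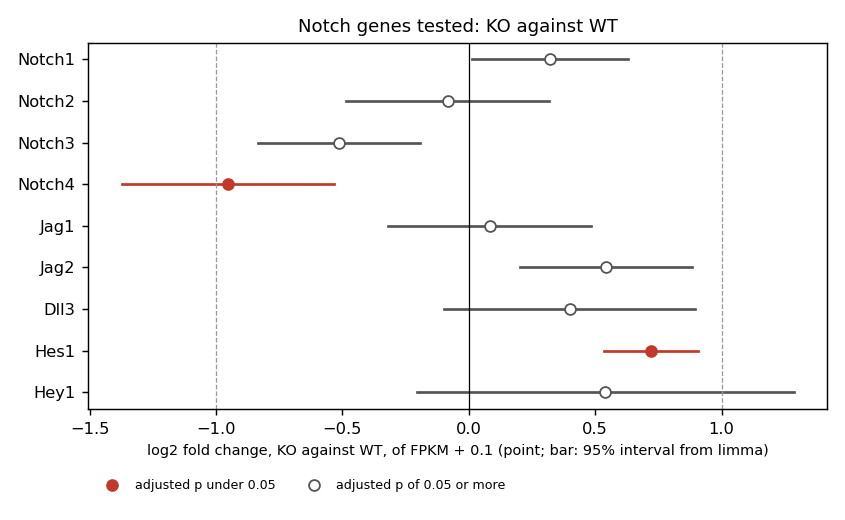
Log2 fold change of KO against WT (x axis, on FPKM + 0.1) of the 9 genes tested (y axis), with the 95% interval from limma as a bar; filled red points have an adjusted p under 0.05 and dashed lines mark a 2-fold change. Notch4 at -0.95 and Hes1 at 0.72 are the filled points, and the intervals of Notch2, Jag1, Dll3 and Hey1 cross 0.

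Among the receptors, *Notch4* fell in KO and the other receptors did not pass the test. *Notch4* (ENSMUSG00000015468.14, plus strand of chromosome 17 from 34564268 to 34588503 in GRCm38) encodes a receptor best known from endothelial cells. The WT libraries had 4.34 and 3.61 FPKM, and the KO libraries had 2.2 and 1.81. Both KO libraries lay well below both WT libraries. WT averaged 3.98 ± 0.517 FPKM and KO 2.01 ± 0.276 (SD, n = 2), so that *Notch4* fell, by a log2 fold change of -0.95 (standard error, SE, 0.17; 95% interval -1.37 to -0.54, limma adjusted p = 0.0229). Without the filter on low values, where 19645 features shared the adjustment, the adjusted p was 0.0597 (range over the 10 alternatives 0.00778 to 0.0597). The log2 fold change was between -1.09 and -0.82 with any library left out.

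*Notch4* is expressed in endothelium, so the endothelial markers are given beside it. Their sum was 19.4 and 18.9 FPKM in WT and 19.3 in both KO libraries, and 15.7 to 16.2 of it was *Pecam1*, which ESCs also express. The endothelial cadherin gene *Cdh5* was listed at 0 in both WT libraries and had 0.0794 and 0.0103 FPKM in KO. Of the 3 endothelial markers tested, *Tek* rose (log2 fold change 0.85, limma adjusted p = 0.0335, but 0.0761 with no filter, 0.0891 without KO replicate 1 and 0.0847 without KO replicate 2), *Vwf* had 1.90 and 1.93 FPKM in WT and 1.10 and 1.27 in KO (limma adjusted p = 0.0706), and *Pecam1* had a log2 fold change of -0.02. Their part in the *Notch4* difference was not tested.

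*Notch3* (ENSMUSG00000038146.8, minus strand of chromosome 17 from 32120820 to 32166852) had 4.32 and 4.07 FPKM in WT and 3.06 and 2.76 in KO. Both KO libraries lay below both WT libraries, by a log2 fold change of -0.51 (SE 0.13, 95% interval -0.83 to -0.19), but the adjusted p of 0.0574 from limma did not pass. It was 0.0462 with quantile normalization. *Notch1* (ENSMUSG00000026923.15, minus strand of chromosome 2 from 26457903 to 26516663), the receptor most studied in early development, had 4.58 and 3.95 FPKM in WT and 5.48 and 5.21 in KO. Its KO libraries lay above its WT libraries, with a log2 fold change of 0.32 (SE 0.13, 95% interval 0.01 to 0.63, limma adjusted p = 0.158). *Notch2* (ENSMUSG00000027878.11, plus strand of chromosome 3 from 98013527 to 98150361) had 3.25 and 2.57 FPKM in WT and 2.82 and 2.64 in KO. Its genotypes overlapped, and its log2 fold change of -0.08 (95% interval -0.49 to 0.32, limma adjusted p = 0.767) became 0.08 without WT replicate 1.

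The make-up of the receptor transcripts does not depend on how libraries are scaled to each other. *Notch1* made up 27.8% of the summed FPKM of the 4 receptors in each WT library and 40.4% and 42.0% in the KO libraries. The share of *Notch4* was 26.3% and 25.4% in WT and 16.2% and 14.6% in KO, and that of *Notch3* was 26.2% and 28.6% in WT and 22.6% and 22.2% in KO. *Notch2* stayed between 18.1% and 21.2%. *Notch1*, *Notch3* and *Notch4* were thus at nearly equal levels in WT, with ratios of *Notch1* to *Notch4* of 1.06 and 1.09, whereas in KO the ratio was 2.49 and 2.88. The receptor sum was 16.5 and 14.2 FPKM in WT and 13.6 and 12.4 in KO. A share also rises when the other receptors fall, and the level of *Notch1* itself did not pass (limma adjusted p = 0.158). The shares are a description and were not tested.

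**Figure D3:**
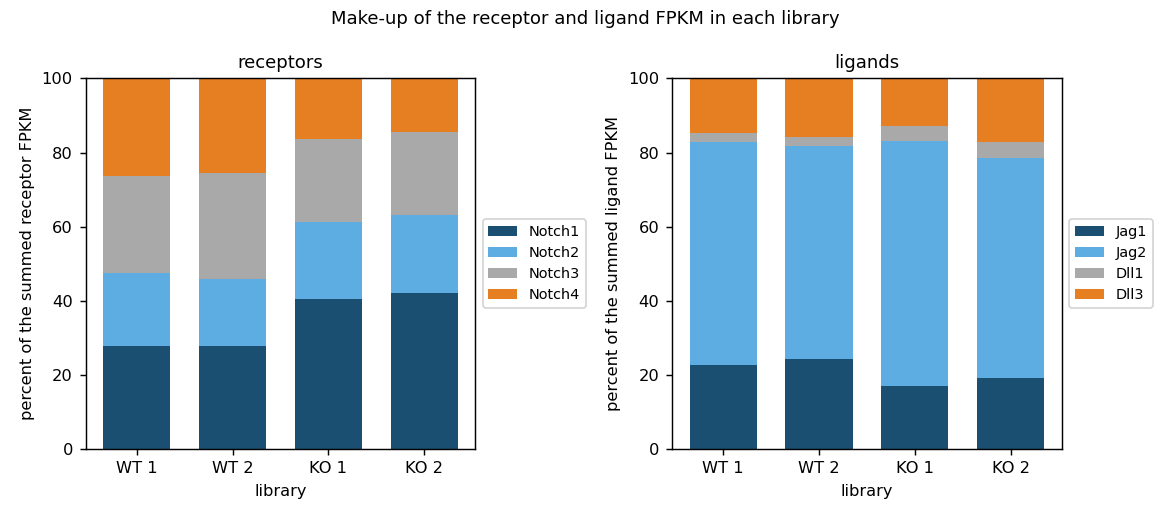
Share of each receptor in the summed receptor FPKM (left) and of each ligand in the summed ligand FPKM (right), in percent, for the 4 libraries on the x axis. The Notch1 part is 27.8% in WT and is 40.4% and 42.0% in KO, while the Jag2 part is the largest ligand part in each library, from 57.3% to 66.2%.

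The promoters of *Notch1*, *Notch3* and *Notch4*, the receptors whose shares lay furthest apart, are shown because BMAL1 binds the E-box CACGTG, the Notch intracellular part acts through the RBPJ core TGGGAA, and HES1 binds the N-box CACNAG. They are the bases before the transcription start in RefSeq (GRCm38.p6) that lie in no annotated exon, written 5′ to 3′ on the strand of the gene, with each N-box, read on either strand, in capitals. The *Notch1* window holds 3 N-box matches, of which the printed stretch holds 1 because the others reach the start.
Notch1, chr2:26503825-26504072, minus strand: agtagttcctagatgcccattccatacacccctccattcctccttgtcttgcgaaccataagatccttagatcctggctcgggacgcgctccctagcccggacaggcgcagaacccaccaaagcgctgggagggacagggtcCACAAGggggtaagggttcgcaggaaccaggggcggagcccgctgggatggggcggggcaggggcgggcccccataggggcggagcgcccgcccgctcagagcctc
Notch3, chr17:32166891-32167140, minus strand: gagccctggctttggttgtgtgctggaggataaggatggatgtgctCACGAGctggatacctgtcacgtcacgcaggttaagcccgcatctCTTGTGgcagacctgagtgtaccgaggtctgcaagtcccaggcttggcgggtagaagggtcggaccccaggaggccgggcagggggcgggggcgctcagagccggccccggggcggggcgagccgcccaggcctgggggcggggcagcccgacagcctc
Notch4, chr17:34564045-34564267, plus strand: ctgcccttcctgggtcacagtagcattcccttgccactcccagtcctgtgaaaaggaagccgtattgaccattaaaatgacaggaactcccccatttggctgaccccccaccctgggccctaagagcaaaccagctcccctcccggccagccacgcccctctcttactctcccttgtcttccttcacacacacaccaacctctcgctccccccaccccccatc
The table of 300-base windows, from 250 bases before to 50 after a start, held 9 windows for 8 of the 10 genes. *Hes1* and *Hey1* had no entry. On either strand, 0 of the 9 windows held CACGTG and 0 held TGGGAA, where 7.15% and 25.6% of all 32851 windows did. CACNAG was found in the windows of *Notch1*, *Notch2* and *Notch3* and in 1 of the 2 windows of *Dll1*, against 42.5% of all windows, and in none of *Notch4*, *Jag1*, *Jag2* or *Dll3*. These are matches of letters within short windows and describe no binding.

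Among the ligands, *Jag2* was the most abundant in each library and had the largest log2 difference of the 3 tested. *Jag2* (ENSMUSG00000002799.6, minus strand of chromosome 12 from 112907819 to 112929776), a Jagged ligand, had 4.24 and 3.97 FPKM in WT and 6.66 and 5.45 in KO. The KO libraries differed from each other by more than the WT libraries, and both lay above WT. WT averaged 4.10 ± 0.192 FPKM and KO 6.06 ± 0.861 (SD, n = 2), which differ by 0.54 on the log2 scale (SE 0.14, 95% interval 0.20 to 0.88). The adjusted p of 0.0582 from limma did not pass, whereas it was 0.0364 with the libraries scaled to the same sum over features with a symbol. With a library left out the log2 fold change was 0.40 to 0.69.

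*Jag1* (ENSMUSG00000027276.7, minus strand of chromosome 2 from 137081456 to 137116644), the other Jagged ligand, had 1.58 and 1.68 FPKM in WT and 1.72 and 1.75 in KO. Its log2 fold change was 0.08 (SE 0.16, limma adjusted p = 0.769), and the 95% interval of -0.32 to 0.49 leaves room for a fold of 0.802 to 1.40. The ratio of *Jag2* to *Jag1* was 2.68 and 2.36 in WT and 3.88 and 3.11 in KO. *Dll3* (ENSMUSG00000003436.11, minus strand of chromosome 7 from 28293553 to 28302238), a divergent Delta-like protein that acts within the cell and does not activate the receptor on a neighbour, had 1.03 and 1.09 FPKM in WT and 1.30 and 1.58 in KO. Its log2 fold change of 0.40 (SE 0.20, 95% interval -0.10 to 0.90, limma adjusted p = 0.249) did not pass.

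*Dll1* (ENSMUSG00000014773.13, minus strand of chromosome 17 from 15367354 to 15376872), an activating Delta-like ligand, was the lowest of the 10 genes and was under the minimum of 0.5 FPKM. It had 0.162 and 0.183 FPKM in WT and 0.390 and 0.387 in KO, without overlap. With no filter on low values its log2 fold change was 0.84 on the FPKM + 0.1 scale (limma adjusted p = 0.117), and a value this low has no stable ratio. The summed FPKM of the 4 ligands was 7.01 and 6.92 in WT and 10.1 and 9.16 in KO. *Jag2* made up 57.3% to 66.2% of it, and the ranges of its share overlapped between the genotypes. Of the ligand genes outside the 10, *Dll4* had at most 0.0518 FPKM in any library, and *Dlk1* and *Dlk2* also lay under the minimum.

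*Hes1* had the smallest adjusted p of the 10 genes. *Hes1* (ENSMUSG00000022528.8, plus strand of chromosome 16 from 30064384 to 30067796) encodes a repressor and is a classical Notch target, although other pathways also drive it. It had 22.5 and 21.8 FPKM in WT and 36.9 and 36.3 in KO, so that the replicates were close and the genotypes far apart. WT averaged 22.2 ± 0.517 FPKM and KO 36.6 ± 0.400 (SD, n = 2), so that *Hes1* rose, by a log2 fold change of 0.72 (SE 0.08, 95% interval 0.53 to 0.91, limma adjusted p = 0.00604), which is 1.65-fold. It passed in limma under all 10 alternatives (adjusted p 0.00185 to 0.0241). With a library left out its log2 fold change was 0.70 to 0.74. The feature in the deposited tables starts 1184 bases before the annotated gene, and no other annotated gene overlaps it.

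*Hey1* (ENSMUSG00000040289.8, minus strand of chromosome 3 from 8663359 to 8667256), a repressor of the HEY family, had 0.361 and 0.470 FPKM in WT and 0.579 and 0.719 in KO. Both KO libraries lay above WT, but the log2 fold change of 0.54 (SE 0.30, 95% interval -0.21 to 1.29) had an adjusted p of 0.296 from limma. The ratio of *Hes1* to *Hey1* was 62.3 and 46.3 in WT and 63.6 and 50.5 in KO, which overlapped. The sum of neural progenitor markers was also higher in KO: the 6 of 7 listed markers that were present summed to 4.22 and 4.38 FPKM in WT and 14.3 and 14.6 in KO. Most of the KO sum was *Sox1* (6.91 and 7.61 FPKM) and *Pax6* (2.28 and 2.36), whose values are uncertain for the reasons given below. Of the 4 markers tested, *Sox1*, *Pax6* and *Sox3* rose, where 6.85% of all tested features did, and *Nes* did not pass (limma adjusted p = 0.0541). The marker list was chosen with earlier results of these data known, so this count is a description. *Fabp7* was listed at 0 in 3 libraries and *Zic1* had at most 0.0557 FPKM. The *Sox1* feature spans 50962 bases against 4832 of the gene and shares its coordinates with another feature, and the *Pax6* feature spans 368485 against 28465, overlaps *Elp4* and shares its coordinates with 2 others, so both values are uncertain. *Pax6* had an adjusted p of 0.0536 in limma with no filter. *Sox3*, whose feature matches its gene, had 1.67 and 1.42 FPKM in WT and 3.60 and 3.25 in KO (log2 fold change 1.10, limma adjusted p = 0.0133). The part of these markers in the *Hes1* difference was not tested.

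The rest of the pathway was read from 8 lists ordered by role, the 10 genes included, and chosen with earlier results of these data known. They hold 73 genes, of which 72 were in the tables and 54 were tested. In KO 5 of the 54 rose (9.26%, against 6.85% of all features) and 1 fell, and the median log2 fold change was 0.08 against -0.02 for all features. The 5 were *Hes1*, *Hes6*, *Bhlhe40*, *Dtx1* and *Lfng*, and the gene that fell was *Notch4*. Without WT replicate 1, 9 rose, and without WT replicate 2, 2 fell. The 18 genes under the minimum had 0 to 0.717 FPKM, among them the targets *Hes5*, *Hes7*, *Hey2* and *Heyl*.

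In the list of HES and HEY genes and related repressors, 3 of the 5 tested genes rose, where 6.85% of all tested features did. This list was chosen with earlier results of these data known, so the count is a description and no test. *Hes6* (ENSMUSG00000067071.8), a family member known to act against HES1, had 5.76 and 4.96 FPKM in WT and 14.9 and 10.5 in KO, a log2 fold change of 1.21 (SE 0.19, limma adjusted p = 0.0154). *Bhlhe40*, a clock-related bHLH repressor outside the Notch targets proper, had 2.62 and 2.79 FPKM in WT and 12.2 and 10.03 in KO, with a log2 fold change of 1.99 (limma adjusted p = 0.00226). Its feature spans 89890 bases where the annotated gene spans 6297, and another feature has the same coordinates, so its value is uncertain. *Nrarp*, a feedback inhibitor that Notch itself induces, had 1.02 and 1.31 FPKM in WT and 2.22 and 1.54 in KO. Its log2 fold change of 0.63 (SE 0.24, limma adjusted p = 0.156) did not pass.

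Among the enzymes that act on the receptor, *Lfng* and *Dtx1* rose. *Dtx1* (ENSMUSG00000029603.15), a Deltex ubiquitin ligase of Notch and also a known Notch target, had 3.49 and 3.21 FPKM in WT and 8.84 and 7.66 in KO, a log2 fold change of 1.27 (SE 0.13, limma adjusted p = 0.00543). *Lfng* (ENSMUSG00000029570.5) encodes a Fringe glycosyltransferase that changes which ligands a receptor answers to. It had 0.652 and 0.365 FPKM in WT and 1.36 and 1.59 in KO, a log2 fold change of 1.41 (SE 0.31, limma adjusted p = 0.0384). Its adjusted p was 0.0808 with no filter on low values, 0.0531 without a trend in the variance and 0.0770 without KO replicate 2. *Rfng*, also a Fringe gene, had 14.3 and 12.3 FPKM in WT and 9.82 and 9.65 in KO (log2 fold change -0.44, limma adjusted p = 0.0511, 0.0469 with a minimum of 1 FPKM). With a library left out its log2 fold change was -0.55 to -0.33. *Mfng*, the other Fringe gene, had 3.98 and 3.02 FPKM in WT and 3.45 and 2.66 in KO, which overlapped. *Lfng* was thus the lowest of the 3 Fringe transcripts in each library.

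The genes that cleave the receptor and carry its signal to DNA are read against 12.5% of all features at an adjusted p under 0.05 and 29.6% at an unadjusted one. Of the 8 tested proteases and gamma-secretase subunits 0 passed and 1 had an unadjusted limma p under 0.05, with log2 fold changes from -0.22 to 0.27. The most abundant, the gamma-secretase subunit gene *Psenen*, had 64.1 and 63.9 FPKM in WT and 79.2 and 68.5 in KO. Of the 7 tested genes of the nuclear activation complex 0 passed and 1 had an unadjusted limma p under 0.05. That 1 was *Kat2b*, an acetyltransferase gene named after its values were seen, with 16.0 and 17.5 FPKM in WT and 21.04 and 22.9 in KO. Its log2 fold change of 0.39 had a limma adjusted p of 0.0507, which passed under 6 of the 10 alternatives (0.00672 to 0.103). With a library left out the log2 fold change of *Kat2b* was 0.32 to 0.45. *Rbpj*, the DNA-binding partner of all Notch receptors, had 76.1 and 79.7 FPKM in WT and 73.8 and 81.4 in KO. The 95% interval of its log2 fold change, -0.21 to 0.19, corresponds to a fold of 0.865 to 1.14, and the sign of the value changed with scaling. Of the 11 tested corepressors 0 passed and 1 had an unadjusted limma p under 0.05, and *Ctbp2*, the most abundant, had 105 to 112 FPKM in all libraries. The *Ctbp2* feature spans 193229 bases against 136792 of the gene, overlaps *Fgfr2* and *Zranb1* and shares its coordinates with another feature, so its value is uncertain. In the list of ubiquitin and trafficking genes *Dtx1* was the only 1 of 11 to pass. *Dtx3*, the most abundant there, had 28.3 and 21.9 FPKM in WT and 37.3 and 26.6 in KO (limma adjusted p = 0.306). With a library left out its log2 fold change was 0.09 to 0.58. The *Dtx3* feature spans 21245 bases against 5351 of the gene, overlaps *Pip4k2c* and shares its coordinates with other features, so its value is uncertain. *Poglut1*, which adds glucose to the receptor, shares a feature with *Timmdc1*, so its 26.6 to 32.6 FPKM cannot be assigned to either gene.

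**Figure D4:**
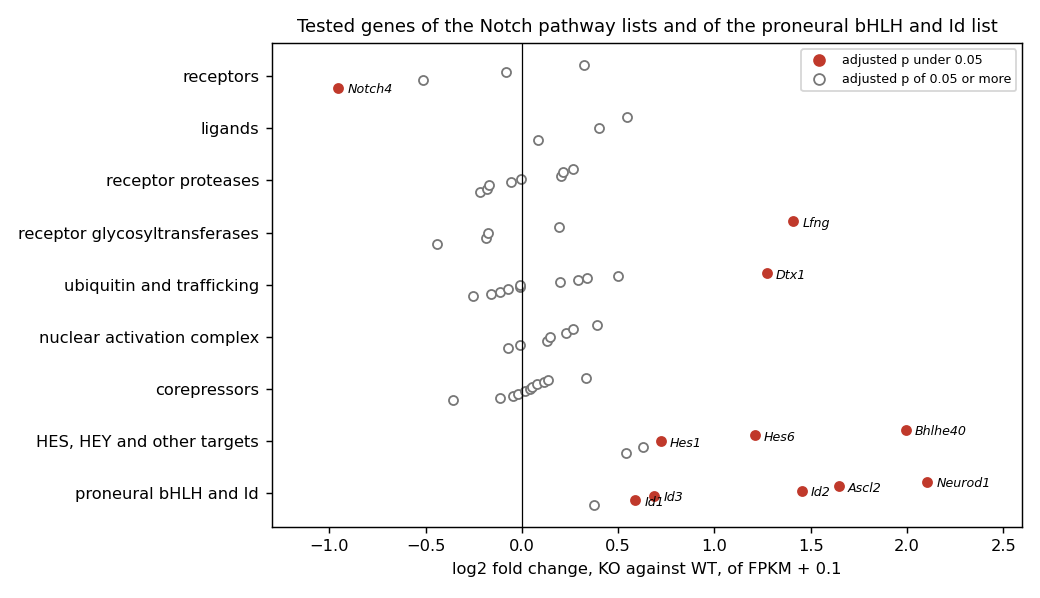
Log2 fold change of KO against WT (x axis, on FPKM + 0.1) of each tested gene, by list (y axis); filled red points with a name have an adjusted p under 0.05 and open points do not. The named points are Notch4 on the left at -0.95 and, on the right, Lfng, Dtx1, Hes1, Hes6 and Bhlhe40 in the Notch lists and 5 genes of the proneural bHLH and Id list.

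The bHLH factors that HES proteins hold back, and the Id proteins that bind bHLH factors and keep them from DNA, formed a further list of 13 genes. It was chosen with earlier results of these data known, so its counts are a description. The proneural genes *Neurog1*, *Neurog2* and *Atoh1* were under the minimum. All 6 tested genes of the list were higher in both KO libraries (27.0% of all features), and 5 of them passed (6.85% of all features were higher), *Id1*, *Id2*, *Id3*, *Ascl2* and *Neurod1*. *Id2* had the largest change of the Id genes, from 6.69 and 7.60 FPKM in WT to 18.1 and 21.4 in KO (log2 fold change 1.45, SE 0.12, limma adjusted p = 0.00410). *Id1*, the most abundant, rose from 91.7 and 91.0 FPKM to 139 and 136 (log2 fold change 0.59, limma adjusted p = 0.00746), although its feature spans 8052 bases against 1160 of the gene. *Id3* rose from 27.0 and 24.9 FPKM to 43.9 and 39.9 (log2 fold change 0.69, limma adjusted p = 0.00994), and *Id4* had a log2 fold change of 0.37 (limma adjusted p = 0.0889). The *Id4* feature spans 220448 bases against 4799 of the gene and shares its coordinates with another feature, so its value is uncertain. *Ascl2*, known from trophoblast and intestinal stem cells rather than neurons, rose from 0.429 and 0.419 FPKM to 1.26 and 1.87 (log2 fold change 1.65, limma adjusted p = 0.0187, 0.0510 without KO replicate 2). *Neurod1*, a factor of neuronal and endocrine differentiation, had 0.423 and 0.517 FPKM in WT and 2.02 and 2.72 in KO, but its feature overlaps *Cerkl*, so reads may be shared. *Ascl2* and *Neurod1* passed the minimum through their KO libraries.

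The 10 genes lie on 6 chromosomes, and taken over all 10 the genes beside them gave no common direction. For each, the 3 nearest tested features with a symbol on either side were read, and 12.5% of all tested features had an adjusted p under 0.05. Some of these neighbours lay far away, up to 3003361 bases for *Jag1*. Beside *Notch4*, 0 of 6 had an adjusted p under 0.05 in limma, their log2 fold changes ran from -0.12 to 0.48, and *Gpsm3*, 563 bases away, had -0.12. The 3 before *Notch4* lay 367049 to 404045 bases away and had an SE of 0.34 to 0.38. Beside *Hes1* 0 of 6 passed, with log2 fold changes from -0.25 to 0.18 at distances of 244613 to 2610982 bases. Beside *Jag2* 0 of 6 passed as well, but their log2 fold changes, from -0.12 to 0.63, had a median of 0.21. Among them *Nudt14*, 4961 bases from *Jag2*, had 0.48 (limma adjusted p = 0.0827) and *BC022687* had 0.63 (limma adjusted p = 0.0783). Their part in the *Jag2* difference was not tested. Of the 6 beside *Notch3*, *Hsf2bp* fell (log2 fold change -0.61, limma adjusted p = 0.00947), and of the 6 beside *Hey1*, *Stmn2* fell (log2 fold change -0.90, limma adjusted p = 0.00566). Beside *Notch1* and *Dll3* 1 of 6 passed each. The neighbours named here were picked after their values were seen. The features of *Notch1*, *Notch2*, *Notch3*, *Jag2* and *Dll1* overlap annotated genes that code for no protein, that of *Notch4* overlaps a pseudogene, and none of the 10 overlaps another protein-coding gene.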

How the data were processed

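RNA of 2 WT and 2 *Bmal1* KO ESC libraries was analysed from the deposited tables, grouped by their labels. The authors aligned the reads to GRCm38 with TopHat2 2.1.1 and Bowtie2 2.3.0 and estimated FPKM with Cufflinks 2.2.1, and these FPKM were deposited. Whether counting used the strand is not given in the sources used here, so antisense transcripts may contribute. Feature starts are counted from 0 (1462 of 4155 features that share a gene's end start 1 base below it), so 1 was added. Genes were matched by symbol to GENCODE M21 on GRCm38. Where a symbol had several features, the most abundant was read.

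Values were compared as log2(FPKM + 0.1) over 12990 features (mean FPKM 0.5 or more) in limma 3.58.1 under R 4.3.3, with a trended empirical Bayes variance and Benjamini-Hochberg adjustment over all features. A fold change on this scale understates that of low genes. The median SD between replicates was 0.116. The fit was tested on simulated data. The other steps used Python 3.11.15 with pandas 2.3.3 and numpy 2.4.6, and figures were drawn in matplotlib 3.10.9. The genes and lists were chosen with earlier results of these data known. Named are the 10 genes, other genes of the lists with an adjusted p under 0.05, and up to 3 of the most abundant of a list; neighbours and markers are given beside the result they touch. The 10 alternatives were a pseudocount of 1 or 0.01, no filter, a minimum of 1 FPKM, quantile normalization, median-of-ratios scaling, the same sum over features with a symbol, the replicate number as a block, no variance trend, and FPKM summed by symbol. Each of the 4 libraries was also left out in turn. The lone library left in a genotype is assumed to vary like the others. These fits had 10.4 to 42.5 total degrees of freedom against 5.83 in the main fit. Adjusted p-values and counts with a library left out are therefore not on a par with those of the main fit, and passing there adds no support.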

Additional observations from a re-analysis of the deposited data

How the results depend on the processing

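The rise of *Hes1* kept its call under all alternatives, and the fall of *Notch4* under all but the fit with no filter. Both kept their direction under all alternatives and with each library left out. Over all features, 353 were called higher and 185 lower beyond 2-fold. A pseudocount of 1 left 146 and 85, and with a library left out 316 to 484 were higher and 251 to 331 lower. At an adjusted p under 0.05 of any size, 890 were higher and 728 lower (55.0% higher; 67.6% with the same sum over features with a symbol). No filter gave 571 and 380, no variance trend left 457 lower, and the replicate block gave 1807 and 2245. The labels do not say that equal replicate numbers were processed together, and with 2 pairs the data cannot decide it: the differences between replicates 1 and 2 of WT and of KO were correlated across features at r = 0.0712 (Pearson) and rho = 0.387 (Spearman), which are not independent. Under the block, 2 of the 10 Notch genes were higher (*Hes1* and *Jag2*) and 2 lower (*Notch4* and *Notch3*), and 14 genes of the 8 lists were higher and 3 lower. Scaling to the same sum over features with a symbol gave 2 higher among the 10 and 8 among the lists. Of the genes that were lower, no filter left 0 among the 10 and 0 among the lists, quantile normalization gave 2 and 2, and a minimum of 1 FPKM gave 2 among the lists. With a library left out, 1 to 2 of the 10 were higher, and 5 to 9 of the lists were higher and 1 to 2 lower. Among *Arntl*, the 10 genes and the named genes of the Notch and bHLH lists, signs changed for *Arntl*, *Rbpj*, *Ctbp2*, *Notch2* and *Mfng*. Other genes changed sign too: the ESC marker *Pou5f1* ran from -0.145 to 0.049 with a library left out, and *Dppa5a* reached 0.257 under an alternative. *Arntl* was 0.0166 under the same-sum scaling. *Rbpj* was 0.0242 with quantile normalization, 0.00022 with median-of-ratios scaling, 0.0657 with the same sum and -0.0778 to 0.0628 with a library left out. *Ctbp2* was 0.0149 with quantile normalization and 0.0247 with the same sum. With a library left out *Notch2* ran from -0.247 to 0.0787 and *Mfng* from -0.382 to 0.00578, both positive without WT replicate 1. The read numbers are unknown, so what depth limits cannot be stated.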
